A study of Mus musculus with 6 samples.

Results

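Decorin, biglycan, lumican and fibromodulin (Dcn, Bgn, Lum and Fmod), Sparc, fibronectin (Fn1), periostin (Postn), the thrombospondins Thbs1 and Thbs2, and fibrillin (Fbn1) are 10 secreted matrix genes, described here in CD8 T cells sorted from tumours. They were taken by name from the 40879 genes of the deposited count table, and all 10 were found. The set was chosen by measured values, namely the Biotin+ against Biotin- difference of these libraries, so that difference is given below as a description. No p-value of a gene of the set is printed for it, and the calls counted below support nothing.

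The cells were tumour-infiltrating CD8 T cells of MC38-hPD-L1 tumours, grown for 12 days on C57BL/6N mice. MC38 is a mouse colon carcinoma line, and the name of the tumour line marks human PD-L1. Light-driven proximity labelling had left biotin on cells near the tumour cells, and flow cytometry separated 3 Biotin+ libraries (cells neighbouring the tumour) from 3 Biotin- libraries (cells distal to it). Every library was poly-A RNA, the groups differed in biotin status alone as far as the labels go, and the labels do not say whether a library came from 1 mouse or several, so that p-values measure the spread between these libraries only.

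Small leucine-rich proteoglycans are secreted proteins that coat collagen fibrils, set their spacing and bind growth factors of the TGF-beta family. Decorin and biglycan carry chondroitin or dermatan sulfate chains, whereas lumican and fibromodulin carry keratan sulfate. Matricellular glycoproteins such as Sparc, periostin and the thrombospondins sit in the matrix and act mainly on how cells attach to it, while fibronectin and fibrillin build its fibres. Fibroblasts are the usual source of most of these proteins in a tumour, macrophages also make fibronectin and thrombospondin, and T cells are known as cells that bind fibronectin and thrombospondin through integrins and CD47.

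The libraries held 16423106 to 19640693 counts. Genes with at least 1 count numbered 15780 to 16213 per Biotin+ library and 18142 to 18477 per Biotin- library. Of the CD8 T cell identity genes 15 of 15 were detected in each group, which does not measure the purity of the sort. Their summed level ranged from 7819 to 10462 CPM in Biotin+ and from 4126 to 5789 CPM in Biotin-. CPM is a gene's share of the library's reads, scaled by the trimmed mean of M values (TMM). In edgeR's quasi-likelihood test 898 of 13360 genes were lower and 205 higher in Biotin+ at an adjusted p of 0.05, and with libraries scaled to the identity genes 3972 were lower and 26 higher. Biotin+ replicate 2 had the lowest TMM factor, 0.815.

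RefSeq's table of promoters for GRCm38.p6, another build than that of the counts, held 7 windows for 6 of the 10 genes (Bgn, Sparc, Fbn1, Fmod, Thbs2 and Postn). The 250 bases before the listed start are shown for 4 of the genes whose groups did not overlap (below). Their start regions can thus be compared by letter. A check of the listed starts against transcripts found those of Fbn1 and Sparc, but not that of Bgn or Thbs2 or any of Postn. Positions below are counted from the listed start, which for Bgn, Thbs2 and Postn is therefore not established. Capitals mark matches, on either strand, to the TATA box (TATAAA), the GC box of Sp factors (GGGCGG), the AP-1 site (TGANTCA) or the TEAD site (CATTCC).
Bgn, chrX:73483351-73483600, + strand: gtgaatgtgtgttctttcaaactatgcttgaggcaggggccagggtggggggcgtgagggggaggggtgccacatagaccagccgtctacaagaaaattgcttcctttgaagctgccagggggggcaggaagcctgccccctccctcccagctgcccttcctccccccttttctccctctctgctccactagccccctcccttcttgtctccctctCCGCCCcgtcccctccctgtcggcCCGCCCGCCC
Sparc, chr11:55420081-55420330, - strand: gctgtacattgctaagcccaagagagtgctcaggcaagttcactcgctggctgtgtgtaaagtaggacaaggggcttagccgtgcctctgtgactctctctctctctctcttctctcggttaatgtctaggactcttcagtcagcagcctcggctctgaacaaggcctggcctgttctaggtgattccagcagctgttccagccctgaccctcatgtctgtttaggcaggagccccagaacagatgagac
Fbn1, chr2:125506439-125506688, - strand: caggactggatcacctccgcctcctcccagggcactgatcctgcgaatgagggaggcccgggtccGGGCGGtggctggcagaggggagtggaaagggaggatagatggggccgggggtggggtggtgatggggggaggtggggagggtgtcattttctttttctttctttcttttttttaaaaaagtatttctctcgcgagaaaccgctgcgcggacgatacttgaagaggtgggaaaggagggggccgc
Postn, chr3:54360857-54361106, + strand: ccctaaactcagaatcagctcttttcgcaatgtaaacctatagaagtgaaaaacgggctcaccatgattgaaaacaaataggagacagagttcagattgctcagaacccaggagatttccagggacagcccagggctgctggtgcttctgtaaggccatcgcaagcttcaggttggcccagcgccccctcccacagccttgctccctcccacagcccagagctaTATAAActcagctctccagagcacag
The Bgn window held 3 GC boxes, starting 34, 10 and 6 bases before the start, of which the last pair overlap by their end bases. The Fbn1 window held 1 GC box. The Postn window shown held 1 TATA box, starting 26 bases before the start, and the Sparc window held none of the 4 motifs. The other Postn window, chr3:54359017-54359266, is not shown and held none of the 4 motifs, at a GC content of 40.4%. The Thbs2 window, also of a gene whose groups did not overlap, is not shown either. It held 1 TATA box, starting 126 bases before the listed start, at a GC content of 46.8%. Of 32851 promoter windows of the same length in the table, 32.7% held a GC box, 12.4% a TATA box, 6.75% an AP-1 site and 12.6% a TEAD site. The GC content of the windows shown was 64.4% for Bgn, 54% for Sparc, 59.2% for Fbn1 and 52% for Postn, beside a mean of 53.2% over all windows. A match is a description of letters and not a site in use.

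Bgn, Sparc, Fn1, Dcn and Thbs1 made up nearly all of the transcripts of the set. Levels between genes were compared per kilobase of the longest coding transcript in GENCODE M21 (CPM per kb), from 1758 bases for Dcn to 11971 for Fbn1. In Biotin- Bgn had the highest level in all 3 libraries, at 198 ± 37.2 CPM per kb (SD, n = 3), followed in all 3 by Sparc at 178 ± 43.3 CPM per kb. These neighbours in the order lay within each other's spread, and per kb of coding sequence Sparc came first in Biotin- replicates 1 and 3, with a mean of 451 ± 109 CPM per kb against 431 ± 81.2 for Bgn. Fn1 at 95.8 ± 61.2 CPM per kb and Dcn at 71.0 ± 7.24 CPM per kb had SD ranges that overlapped, and Fn1 was ahead of Dcn in replicate 1 and behind it in the others. Thbs1 came next in each Biotin- library at 25.2 ± 14.0 CPM per kb, below the spread of Dcn. Fbn1 followed at 10.1 ± 3.05 CPM per kb and Postn at 5.67 ± 3.33 CPM per kb in each Biotin- library, with means below the spread of the gene above but with SD ranges that overlapped. The lowest 3 were Thbs2 at 0.640 ± 0.204, Lum at 0.580 ± 0.101 and Fmod at 0.198 ± 0.231 CPM per kb, with Thbs2 and Lum within each other's spread, and with gaps beyond the spread between Postn and Thbs2 and between Lum and Fmod.

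In Biotin+ the same 5 genes led, in an order that differed among the 3 libraries and in replicate 3 was that of Biotin- replicate 1. Fn1 was first in replicate 1 and Bgn in replicates 2 and 3. The levels were 40.5 ± 13.7 CPM per kb for Bgn, 34.7 ± 17.6 for Sparc, 24.0 ± 10.5 for Fn1, 21.1 ± 11.5 for Thbs1 and 12.7 ± 1.81 for Dcn (SD, n = 3 each), and each lay within the spread of its neighbour. Fbn1 came next in all 3 libraries at 2.10 ± 1.12 CPM per kb. Thbs1 took 16.1 ± 8.99% of the summed per-kb level of the 10 genes in Biotin+ and 4.26 ± 1.92% in Biotin-, with ranges of 5.97% to 23.0% and 2.45% to 6.26% that overlapped.

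**Figure D1:**
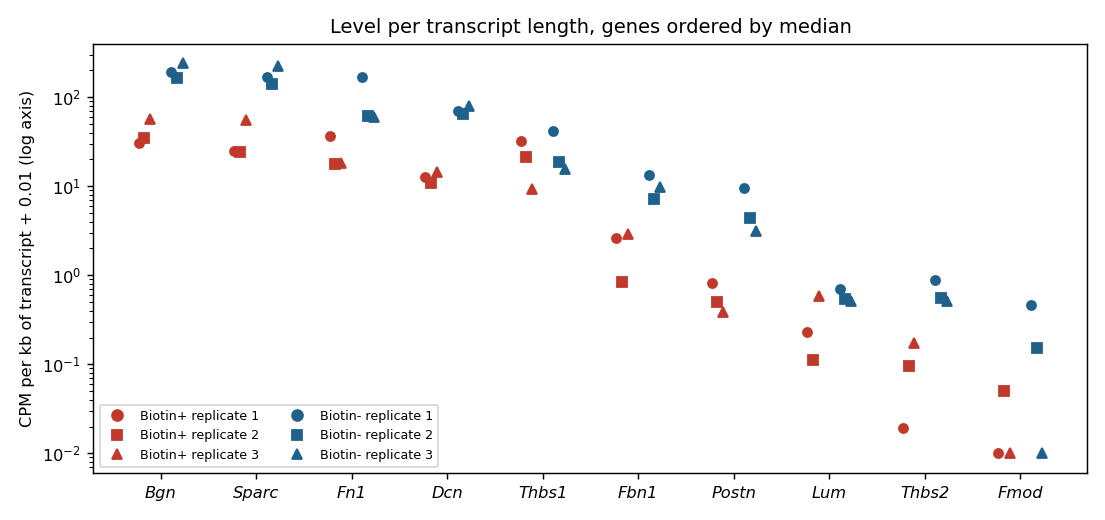
TMM-scaled CPM per kb of transcript (vertical log axis, with 0.01 added) for the 10 genes, ordered by their median over the 6 libraries. Red points are Biotin+ and blue points Biotin- libraries, with the replicate number as the shape; Bgn leads in all 3 Biotin- libraries, and Fmod is last in all 6.

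Among the small leucine-rich proteoglycans, Bgn and Dcn were abundant and Lum and Fmod were near the limit of detection. Together the 4 genes summed to 121 ± 36.2 CPM in the Biotin+ and 605 ± 102 in the Biotin- libraries (SD, n = 3), a ratio of 4.99. Bgn, whose protein binds collagen and signals through Toll-like receptors when soluble, was at 74.1, 84.1 and 136 CPM in Biotin+ replicates 1 to 3 and at 457, 400 and 577 CPM in Biotin- replicates 1 to 3. The groups did not overlap, and replicate 3 was the highest library in each group. The log2 difference of Bgn, Biotin+ minus Biotin-, was -2.29 ± 0.27 (SE, edgeR).

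Dcn, which binds collagen fibrils and TGF-beta, was at 22.3, 19.3 and 25.6 CPM in Biotin+ and at 122, 114 and 139 CPM in Biotin-, in replicate order. The groups did not overlap, and the libraries of a group lay close together, with means of 22.4 ± 3.18 CPM in the Biotin+ and 125 ± 12.7 in the Biotin- libraries (SD, n = 3). The log2 difference of Dcn was -2.48 ± 0.20 (SE), and the 3 same-numbered pairs of libraries gave -2.44, -2.56 and -2.43. Per kb, Dcn stood at 0.260 to 0.414 of Bgn in Biotin+ libraries and at 0.331 to 0.392 in Biotin- libraries, so the ranges of this ratio overlapped.

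Lum, a keratan sulfate proteoglycan of corneal and other collagen fibrils, had 10, 4 and 23 counts in Biotin+ and 35, 24 and 23 counts in Biotin-. Its groups overlapped in CPM, since Biotin+ replicate 3 at 1.39 CPM lay above Biotin- replicates 2 and 3 at 1.32 and 1.24 CPM. Its log2 difference of -0.96 ± 0.72 (SE) became -1.82 without Biotin+ replicate 3. Fmod, the fibromodulin of tendon and cartilage, had 0, 2 and 0 counts in Biotin+ and 29, 8 and 0 counts in Biotin-, so that most of its signal came from Biotin- replicate 1. Fmod did not pass the filter on low counts, and its summed counts over raw library totals were 19.1 times higher in Biotin- (95% exact interval 4.92 to 163, counting error only). The ratio of its mean TMM-scaled CPM was 14.8. At this depth 3 counts correspond to 0.146 to 0.188 CPM in a library, and a count of 0 allows a level up to that.

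Sparc and the fibre-forming glycoproteins Fn1 and Fbn1 were separated between the groups as well. Sparc, a collagen-binding protein of remodelling tissue, was at 57.3, 55.5 and 127 CPM in Biotin+ and at 387, 324 and 519 CPM in Biotin-. The groups did not overlap, replicate 3 was the highest in each, and the log2 difference was -2.36 ± 0.34 (SE). Sparc kept close to Bgn: per kb the ratio of Sparc to Bgn was 0.694 to 0.981 over the Biotin+ libraries and 0.853 to 0.947 over the Biotin- libraries.

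Fn1, fibronectin, the fibre that integrins of migrating cells hold on to, was at 300, 148 and 150 CPM in Biotin+ and at 1383, 514 and 491 CPM in Biotin-. Here replicate 1 stood above the others in each group, and the groups did not overlap. The log2 difference of Fn1 was -2.0 ± 0.44 (SE), and it was -1.33 without Biotin- replicate 1. Fbn1, the main fibrillin of microfibrils, was at 31.3, 9.81 and 34.3 CPM in Biotin+ and at 159, 86.6 and 118 CPM in Biotin-, with no overlap, replicate 2 the lowest in each group and a log2 difference of -2.27 ± 0.42 (SE).

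Postn, periostin, which links collagen with fibronectin, had the largest log2 difference of the 9 genes that could be fitted. It was at 2.59, 1.56 and 1.21 CPM in Biotin+ and at 30.3, 14.1 and 10.1 CPM in Biotin-, with a log2 difference of -3.34 ± 0.48 (SE). Replicate 1 was the highest and replicate 3 the lowest library in each group. Relative to Fn1, Postn was lower in Biotin+ too: the per-kb ratio was 0.0209 to 0.0273 there and 0.0534 to 0.0714 in Biotin-, without overlap.

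The 2 thrombospondins differed in level and in pattern. Thbs1, which binds CD47 and CD36 and can release TGF-beta from its latent form, was at 189, 126 and 54.9 CPM in Biotin+ and at 241, 110 and 90.3 CPM in Biotin-. The groups overlapped widely, and within each group the level was highest in replicate 1 and lowest in replicate 3. The log2 difference of Thbs1 was -0.26 ± 0.46 (SE), with -0.35, 0.18 and -0.72 in the same-numbered pairs, and its sign changed without Biotin+ replicate 3 (0.10) or Biotin- replicate 1 (0.30). With libraries scaled to the identity genes it was -1.0, where that scaling moved the median of all genes by -0.73. In the 3 Biotin- libraries the per-kb ratio of Thbs1 to Fn1 was 0.248, 0.306 and 0.261, and in the Biotin+ libraries it was 0.895, 1.20 and 0.519. The ranges of this ratio did not overlap.

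Thbs2, a thrombospondin of fibroblasts that shares the angiogenesis-inhibiting repeats, was at 0.0539, 0.50 and 0.969 CPM in Biotin+ (1, 8 and 16 counts) and at 5.16, 3.18 and 2.97 CPM in Biotin- (106, 58 and 55 counts). The groups did not overlap, but the pairs ranged from -5.09 to -1.52 on the log2 scale, and the log2 difference of -2.89 ± 0.77 (SE) had the largest SE of the set. GENCODE M21 places a gene on the opposite strand over Fn1, Thbs1 and Fbn1. The one over Fn1 had 9 counts in all libraries together against 57318 for Fn1. Those over Thbs1 and Fbn1 were absent by name from the deposited count table. The strand setting of the counting is not given in the sources used here.

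**Figure D2:**
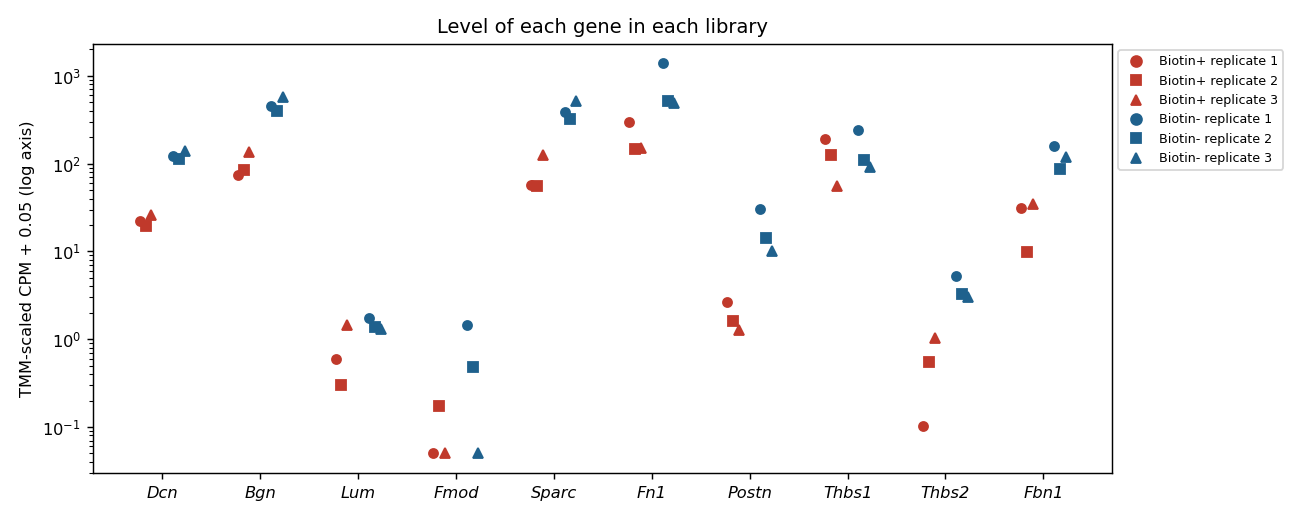
TMM-scaled CPM (vertical log axis, with 0.05 added) of each of the 10 genes in each of the 6 libraries, red for Biotin+, blue for Biotin-, with the replicate number as the shape. Dcn, Bgn, Sparc, Fn1, Postn, Thbs2 and Fbn1 have no overlap between the groups, whereas Lum, Fmod and Thbs1 do.

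Of the 10 genes 9 passed the filter on low counts and 7 of these had an adjusted p below 0.05 for lower expression in Biotin+ (edgeR), where 6.72% of all 13360 genes tested were called lower. Their groups did not overlap in 7 of 9 cases, as for 15.9% of all genes tested in this direction. The contrast had chosen the genes, so nothing is read from these counts. The median log2 difference of the 9 was -2.29, beside 0.06 over all genes tested. The number called lower was 5 when Biotin+ replicate 2 was left out and also 5 when Biotin- replicate 1 was, as Fn1 and Thbs2 were then no longer called; Thbs2 kept its call only when Biotin+ replicate 3 was the library left out. It was 7 with the replicate number as a block, where 12% of all genes were called lower and 5.6% higher.

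**Figure D3:**
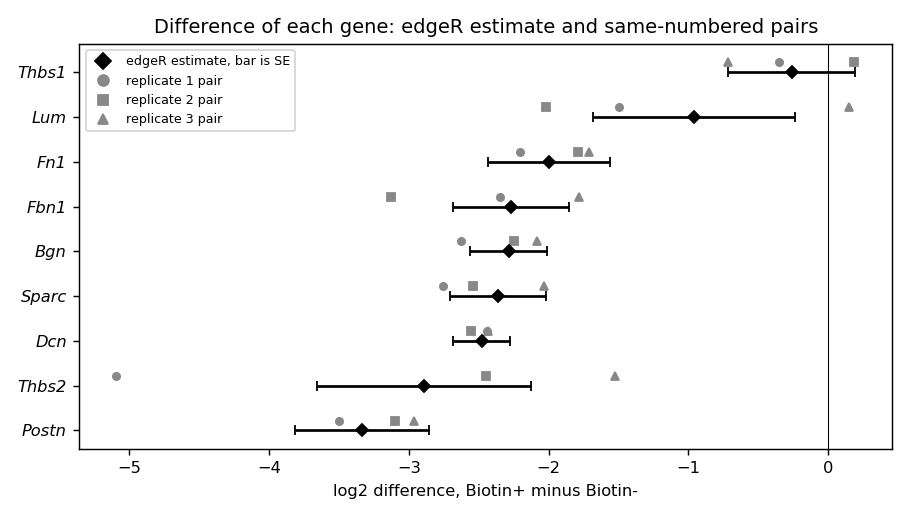
Log2 difference, Biotin+ minus Biotin- (horizontal axis), for the 9 genes that passed the filter: black diamonds are edgeR estimates with SE bars, and grey points are the 3 same-numbered pairs of libraries. Postn lies farthest from 0 at -3.34, and Thbs1 at -0.26 has pairs on both sides of 0.

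The genes also differed in how they varied with the replicate number, a measure that the choice of the set did not use. Libraries with the same number deviated together over all genes. Fn1, Postn and Thbs1 were highest in replicate 1 of each group, whereas Dcn, Bgn and Sparc were highest in replicate 3 of each group. The library with the highest level carried the same number in the 2 groups for 6 of 9 genes, and for 47.7% of all genes tested, so that such agreement by itself is common here. Lum, Thbs2 and Fbn1 were highest in replicate 3 of Biotin+ and replicate 1 of Biotin-.

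A fit with group and replicate number, chosen after these values were seen, gave the size of the pattern. Its p-values do not allow for that choice, so nothing is read from which genes pass. From replicate 1 to replicate 3, Thbs1 was lower by a log2 difference of -1.59 ± 0.25 (SE, edgeR adjusted p = 0.00432) and Fn1 by -1.25 ± 0.22 (SE, edgeR adjusted p = 0.00869). Each was lower in replicate 3 in 2 of 2 groups. Postn, at -1.39 ± 0.35 (SE, edgeR adjusted p = 0.0720), and Sparc, at 0.79 ± 0.23 (SE, edgeR adjusted p = 0.132), did not pass, nor did Bgn at 0.60 ± 0.22 (SE, edgeR adjusted p = 0.263). Dcn, at 0.20 ± 0.23 (SE, edgeR adjusted p = 0.860), did not pass either, and its difference was smaller than its SE. In this comparison 0.973% of all genes were called lower and 0.269% higher in replicate 3. The call of Thbs1 was lost without Biotin+ replicate 3, and that of Fn1 without Biotin- replicate 1 or Biotin- replicate 3. Over the 6 libraries left out in turn the log2 difference was -1.93 to -1.29 for Thbs1 and -1.48 to -1.02 for Fn1. Leaving out replicate 2 of Biotin+ or of Biotin- leaves the other replicate 2 library alone with its number. The contrast then rests on the same libraries of replicates 1 and 3, so these 2 fits are nearly the same and not separate checks. They gave log2 differences of -1.40 and -1.43 for Postn, 0.77 and 0.75 for Sparc, and 0.59 and 0.57 for Bgn.

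**Figure D4:**
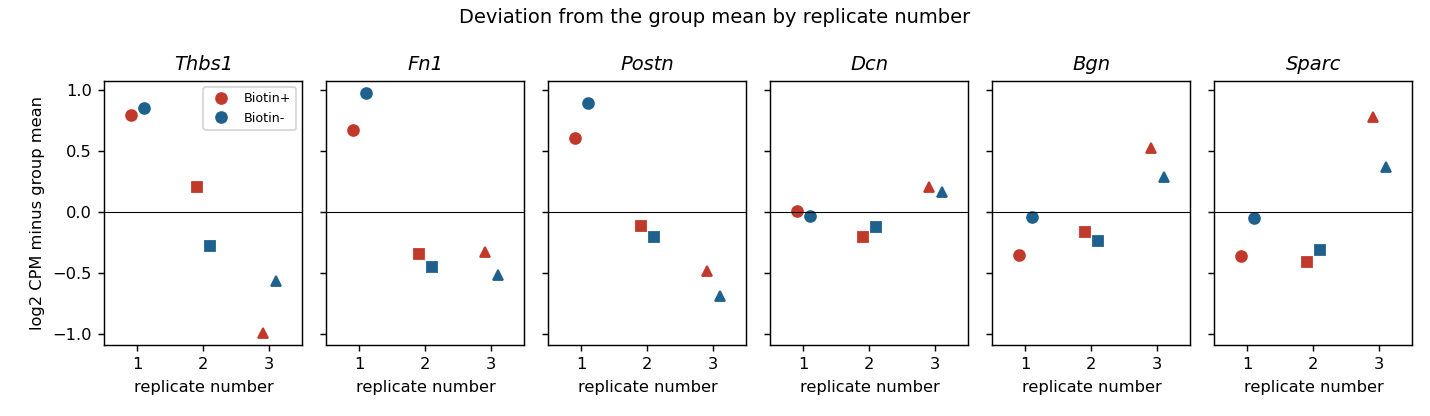
Log2 CPM minus the mean of the library's own group (vertical axis) against the replicate number, for 6 genes, with red for Biotin+ and blue for Biotin-. Thbs1, Fn1 and Postn are highest in replicate 1 of each group, and Dcn, Bgn and Sparc in replicate 3 of each group.

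Marker transcripts of other cells were present in the sorted libraries, and the sum of those of fibroblasts did not overlap between the groups. The fibroblast list (9 of 10 genes detected in each group; Fap at 0 in Biotin+ and Tagln at 0 in Biotin-) summed to 100 to 192 CPM in Biotin+ and 635 to 1006 CPM in Biotin-, and 5 of the 8 tested were lower in Biotin+. That count was 7 with the replicate block, and 3 when Biotin+ replicate 2 or either of Biotin- replicates 1 and 3 was left out. Col1a1, the collagen I chain of fibroblasts, was at 21.4, 21.2 and 34.0 CPM in Biotin+ and at 280, 136 and 157 CPM in Biotin-. The macrophage and monocyte list (10 of 10 detected) summed to 951, 991 and 340 CPM in Biotin+ and to 2610, 762 and 913 CPM in Biotin-, overlapping between the groups. Its 10 genes all had negative log2 differences, with a median of -0.96 beside 0.06 over all genes tested. Of these 10 genes 0 were called lower in edgeR's test (1 at an unadjusted p below 0.05, and 0 by DESeq2 and limma-voom). With the replicate block 4 were called lower (Mrc1, Adgre1, Itgam and Lyz2), where 12% of all genes were. With libraries scaled to the identity genes 7 were called lower, where 3972 of all 13360 genes tested were. The highest library of this list, Biotin- replicate 1, was also the highest for Fn1, Thbs1, Postn, Lum, Fmod, Thbs2 and Fbn1. It was the highest for the fibroblast list too, whereas Dcn, Bgn and Sparc were highest in Biotin- replicate 3. The share of all genes with their highest level in Biotin- replicate 1 is not given here, so nothing is read from these matches. The lowest library of the macrophage and monocyte list, Biotin+ replicate 3, was the lowest for Thbs1 and Postn. By contrast, Fn1, Dcn, Lum, Sparc and Fbn1 were lowest in Biotin+ replicate 2, and Bgn and Thbs2 in Biotin+ replicate 1.

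The other lists, which include those of neutrophils, dendritic cells, B cells, CD4 T cells and NK cells, overlapped between the groups. Endothelial markers summed to 12.2 to 25.3 CPM in Biotin+ and 22.9 to 33.6 CPM in Biotin-, with Tek and Emcn at 0 in Biotin+. Platelet and megakaryocyte markers, listed because platelets store thrombospondin, summed to 6.90 to 11.3 and 9.30 to 27.2 CPM, with Gp6 at 0 in all libraries and Gp9 at 0 in Biotin+. Of the epithelial and tumour markers Krt7, Krt20 and Cdx2 were at 0 in all libraries and Krt8, Krt19 and Cldn4 also in Biotin+, and the list summed to 27.4 to 137 and 25.6 to 64.6 CPM. The part of other cells in the levels of the 10 genes was not tested. In such bulk libraries fewer cells of a type and less RNA per cell cannot be told apart.

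**Figure D5:**
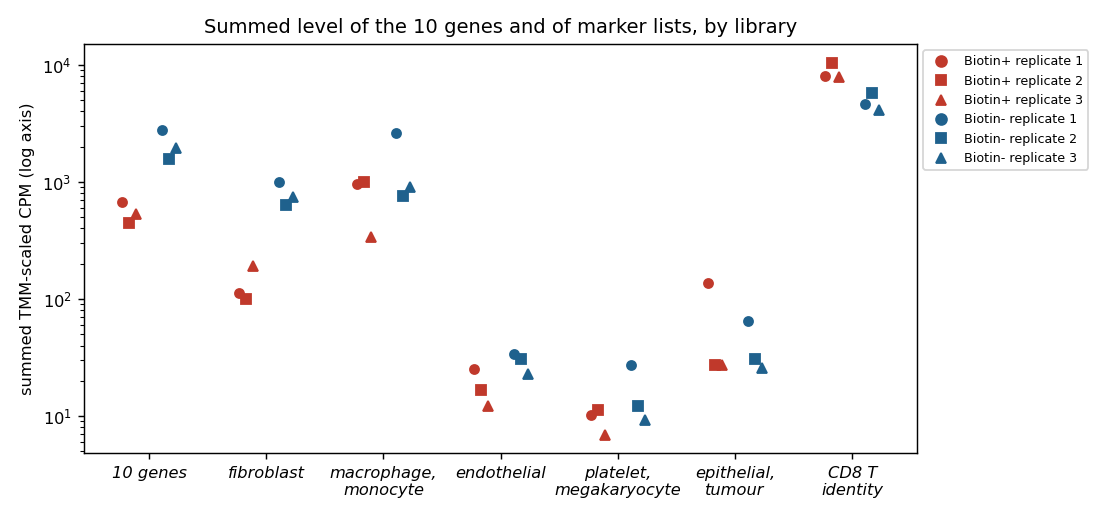
Summed TMM-scaled CPM (vertical log axis) of the 10 genes and of 6 marker lists in each library, red for Biotin+ and blue for Biotin-, with the replicate number as the shape. The sums of the 10 genes and of fibroblast markers do not overlap between the groups, those of macrophage and monocyte markers do, and the CD8 T cell identity genes are higher in Biotin+.

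Many genes related to the set but outside it were lower in Biotin+. Of 98 such genes in 7 lists, 73 could be tested, and 28 were lower and 2 higher in Biotin+ (edgeR adjusted p below 0.05), where 6.72% of all genes were lower and 1.53% higher. The number lower was 15 when Biotin+ replicate 2 was left out, and 18 or 17 when replicate 1 or 3 of Biotin- was. It was 40 with the replicate block, which also called 4 higher, where 12% of all genes were lower and 5.6% higher. With libraries scaled to the identity genes it was 46, where 3972 of all 13360 genes tested were lower. Fibroblast markers were lower in the same libraries (100 to 192 against 635 to 1006 CPM), and their part in these counts was not tested.

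Of 13 other small leucine-rich proteoglycans, 4 could be tested and 2 were lower, with a median log2 difference of -2.35. Prelp, a proteoglycan that anchors basement membranes to connective tissue, was at 1.97 ± 0.316 CPM in the Biotin+ and 12.9 ± 7.23 in the Biotin- libraries (SD, n = 3, log2 difference -2.70 ± 0.46 SE, edgeR adjusted p = 0.00837). Tsku, which binds TGF-beta and other growth factors, had a log2 difference of -2.14 ± 0.44 (SE), and was no longer called when Biotin+ replicate 2 or one of replicates 1 and 3 of Biotin- was left out. Aspn, the closest relative of Dcn and Bgn in the list, had a log2 difference of -2.55 ± 0.74 (SE, edgeR adjusted p = 0.0605). Podnl1 was at 6.47 ± 1.93 CPM in Biotin+ libraries and 5.95 ± 1.67 in Biotin- libraries (SD, n = 3, log2 difference 0.12 ± 0.37 SE, edgeR adjusted p = 0.889). Kera and Epyc, proteoglycans of cornea and cartilage, were at 0 in all libraries.

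Matricellular genes outside the set had 14 tested of 20, and 9 of them were lower, or 10 with the replicate block (median log2 difference -2.11). Tnc, the tenascin of wound and tumour stroma, was at 0.635 ± 0.277 CPM in the Biotin+ and 11.9 ± 7.0 in the Biotin- libraries (SD, n = 3, log2 difference -4.20 ± 0.54 SE, edgeR adjusted p = 0.00577). Fstl1, a Sparc family member, had a log2 difference of -2.31 ± 0.37 (SE), and Ccn1, a secreted target of mechanical signalling, of -2.25 ± 0.39 (SE). Spp1, osteopontin, which macrophages and T cells also make, had a log2 difference of -1.45 ± 0.26 (SE). Ccn1 and Spp1 lost the call without Biotin+ replicate 2. The number lower was 4 or 2 when replicate 1 or 2 of Biotin+ was left out, and 5 or 4 when replicate 1 or 3 of Biotin- was.

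Microfibril and elastic fibre genes, the partners of Fbn1, were lower for 8 of 11 tested from a list of 15, or 9 with the replicate block (median log2 difference -1.96). Ltbp1, Ltbp2 and Ltbp3, which are bound by fibrillin and, for Ltbp1 and Ltbp3, hold latent TGF-beta, had log2 differences of -2.23 ± 0.31, -2.33 ± 0.33 and -1.89 ± 0.31 (SE). Fbln2, a fibulin that binds fibronectin and fibrillin, was at 70.5 ± 27.2 CPM in the Biotin+ and 346 ± 107 in the Biotin- libraries (SD, n = 3, log2 difference -2.30 ± 0.34 SE, edgeR adjusted p = 0.00657). These 4 kept their call without each library in turn.

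Of 7 other matrix proteoglycans 4 were tested and 3 were lower: Hspg2 (perlecan of basement membranes), Cspg4 (a proteoglycan of pericytes and tumour cells) and Vcan (versican). Hspg2 was at 63.2 ± 18.7 CPM in the Biotin+ and 275 ± 29.95 in the Biotin- libraries (SD, n = 3, log2 difference -2.12 ± 0.24 SE, edgeR adjusted p = 0.00554), and the log2 differences of Cspg4 and Vcan were -2.08 ± 0.32 and -2.06 ± 0.35 (SE). Agrn, agrin, at -0.83 ± 0.32 (SE, edgeR adjusted p = 0.155), passed with the replicate block (edgeR adjusted p = 0.0102).

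The enzymes that build the glycosaminoglycan chains of proteoglycans had a median log2 difference of -0.08, with 1 of 21 tested lower and 1 higher. Chst12, a chondroitin sulfotransferase, was higher at 141 ± 18.6 CPM in the Biotin+ and 57.5 ± 10.5 in the Biotin- libraries (SD, n = 3, log2 difference 1.30 ± 0.21 SE, edgeR adjusted p = 0.00784), and was not called with libraries scaled to the identity genes. Chst3, another chondroitin sulfotransferase, was lower at 1.19 ± 0.428 against 4.48 ± 1.33 CPM, and lost the call without Biotin+ replicate 2 or 3 or Biotin- replicate 1 or 3. Csgalnact1 and Chst15, which start and sulfate chondroitin chains, had log2 differences of -2.06 ± 0.60 and -1.72 ± 0.51 (SE, edgeR adjusted p = 0.0630 and 0.0671) and passed with the replicate block (edgeR adjusted p = 0.0283 and 0.0319). With that block 6 of the enzymes were lower and 2 higher, where 12% of all genes were lower and 5.6% higher. With scaling to the identity genes 6 of the 21 were lower and 0 higher, where 3972 of all 13360 genes tested were lower and 26 higher. The count under that scaling is near the share of all genes, so nothing about the enzymes is read from it. CD8 T cell identity genes were higher in the same libraries as Chst12 (7819 to 10462 against 4126 to 5789 CPM).

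Receptors of the 10 proteins were lower in Biotin+ for 4 of 14 tested (median log2 difference -0.91), and for 7 with the replicate block. Lrp1, the endocytic receptor that clears thrombospondin, was at 92.5 ± 25.8 CPM in the Biotin+ and 354 ± 115 in the Biotin- libraries (SD, n = 3, log2 difference -1.94 ± 0.30 SE, edgeR adjusted p = 0.00691). The integrin chains Itgb5 and Itga5, of vitronectin and fibronectin receptors, had log2 differences of -1.69 ± 0.29 and -1.59 ± 0.32 (SE), and Tlr4, a receptor proposed for biglycan, of -2.18 ± 0.56 (SE). Itga5 and Tlr4 were no longer called when Biotin+ replicate 2 or one of replicates 1 and 3 of Biotin- was left out, which gave 2 receptors lower each time, and Tlr4 also depended on Biotin+ replicate 1. With libraries scaled to the identity genes 9 receptors were lower, where 3972 of all 13360 genes tested were. Cd47, the thrombospondin receptor of T cells and a gene named after its values were seen, was at 374 CPM in the Biotin+ and 268 in the Biotin- libraries, with a log2 difference of 0.48 ± 0.23 (SE, edgeR adjusted p = 0.245).

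Among TGF-beta ligands and receptors, Tgfb1, the ligand that T cells make, was at 1257 ± 41.9 CPM in the Biotin+ and 691 ± 120 in the Biotin- libraries (SD, n = 3, log2 difference 0.86 ± 0.22 SE, edgeR adjusted p = 0.0345). Tgfb3, a ligand of mesenchymal cells, was at 1.81 ± 0.561 and 5.85 ± 1.93 CPM (SD, n = 3, log2 difference -1.68 ± 0.44 SE, edgeR adjusted p = 0.0424). The call of Tgfb1 was lost with libraries scaled to the identity genes and without each library in turn except Biotin+ replicate 2, and that of Tgfb3 without each library in turn except Biotin- replicate 2. Tgfbr3, betaglycan, at -0.88 ± 0.29 (SE) and Tgfbr2 at 0.61 ± 0.28 (SE) did not pass (edgeR adjusted p = 0.102 and 0.219) but did with the replicate block (edgeR adjusted p = 0.0340 and 0.0330).

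The genes whose levels over the 6 libraries were nearest to the mean profile of the 9 tested members were Timp2, Ctsl, Lrp1, Sorcs2 and Gprc5a. The measure was the Euclidean distance between log2 CPM centred over the 6 libraries, among 8550 other genes with a mean of at least 10 CPM. The distances ran from 0.407 for Timp2, an inhibitor of matrix metalloproteases, through 0.462 for Ctsl, the protease cathepsin L, to 0.487 for Gprc5a. Of the members themselves Dcn was nearest to their mean at 0.831 and Thbs1 the farthest at 2.58. Timp2 was at 82.8 ± 20.2 CPM in the Biotin+ and 317 ± 62.5 in the Biotin- libraries (SD, n = 3), a difference that the likeness to the set fixes. By deviations from the group means alone, which leave the biotin status out, none of the 5 was among the nearest 5.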

How the data were processed

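Poly-A RNA of sorted CD8 T cells was sequenced from 3 Biotin+ and 3 Biotin- samples, mapped by their titles. Raw read counts for each gene symbol were deposited in 1 table, whose values are whole. The submitters' processing notes list GRCm39, featureCounts 2.0.1, STAR 2.7.10a, Trim Galore 0.6.7 and Picard 1.14 without saying what each did. For annotation, strand setting and multi-mapping: not given in the sources used here. Totals were 16423106 to 19640693 counts per library, and without molecular identifiers reads are not independent molecules, so that intervals cover counting error only.

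The counts were fitted over the whole table with edgeR 4.0.16 (R 4.3.3; filterByExpr, TMM, robust quasi-likelihood, group alone; Benjamini-Hochberg over 13360 genes, threshold 0.05), checked on simulated data. SE is the log2 difference divided by the root of F. Same-numbered pairs used CPM plus 0.1, and profiles log2 of CPM plus 0.5. The deviations of same-numbered libraries correlated at 0.424, 0.272 and 0.430 across genes (different numbers -0.107 to -0.304), so the replicate numbers were taken to pair the samples, and blocked values are printed beside the gene or list count whose calls they change. Alternatives were other scalings and filters, DESeq2 1.42.0, limma-voom (limma 3.58.1), the block and each library left out. The fit of replicate number 3 against 1 was added after seeing the data.

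The genes and lists were chosen with earlier results of these data known. The text names the 10 genes, the up to 4 genes of each related list with the smallest p, the 5 nearest profiles and marker genes. Transcript lengths came from GENCODE M21 and promoters from RefSeq, both of GRCm38, a build other than that of the counts.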

Additional observations from a re-analysis of the deposited data

How the results depend on the processing

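The direction of Dcn, Bgn, Lum, Sparc, Fn1, Postn, Thbs2 and Fbn1 was negative in all 15 alternatives, and that of Thbs1 in all but those without Biotin+ replicate 3 or Biotin- replicate 1. Of 135 values of the log2 differences, 127 moved by less than 1 SD between replicates and 8 by more. Scaling to the identity genes moved the median of all genes by -0.73 and gave a median of -3.04 for the 9 tested members, 26 genes higher and 3972 lower, and 0 higher and 46 lower related genes. Without any scaling beyond library size (median of all genes moved by -0.20) 84 genes and 1 related gene were higher. Without a filter 396 genes were higher and 1495 lower, and by DESeq2 471 and 1389. With the replicate block 748 genes were higher and 1599 lower, and 4 related genes were higher and 40 lower; the block changed no call of the 10 genes. Leaving out each library in turn gave 23 to 200 genes higher and 239 to 1044 lower, 5 to 7 members lower, 1 to 2 related genes higher and 15 to 29 lower, and a median of -2.58 to -2.20 for the members. The cause of these shifts was not tested. By coding in place of transcript length Bgn and Sparc each had a median place of 1.5 in the order of levels, and Sparc had the higher mean in Biotin-. None of the 5 nearest genes was shared when group means were removed. In the fit of replicate 3 against 1, 2 of the 9 genes tested were lower under each scaling. Depth limits Fmod, Lum and Thbs2, which had at most 106 counts in a library.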
